A study of Mus musculus with 6 samples.

Results

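The fibroblast growth factor (FGF) ligands and receptors of subcutaneous white adipose tissue (scWAT) were examined as 10 genes chosen by symbol: the ligands *Fgf1*, *Fgf2*, *Fgf7*, *Fgf9*, *Fgf10* and *Fgf18*, the receptors *Fgfr1*, *Fgfr2* and *Fgfr3*, and the co-receptor *Klb*. These 10 of the 55401 genes in the count files were found once each, and all 10 passed the filter on low counts that left 16807 genes for testing. The study sequenced total RNA of scWAT from male mice 8 weeks old, housed at 22 °C on normal chow. The control mice carried floxed *Yap* and *Taz* alleles without Cre recombinase (YT-FF, 3 libraries), and the labels call their genotype WT. The other mice carried the same floxed alleles and an *Adipoq*-driven Cre (YT-AKO, 3 libraries); that promoter works in mature fat cells, and the deletion is therefore aimed at adipocytes while the other cells of the depot keep both genes. In bulk tissue, fewer cells of a type and less RNA per cell cannot be told apart.

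FGFs are secreted signals that bind receptor tyrosine kinases on the cell surface with the help of heparan sulfate chains. Bound receptors pass the signal through the adaptor FRS2 to RAS, RAF and the MAP kinases, and the pathway induces its own inhibitors, such as the Sprouty proteins and the phosphatase DUSP6. In fat, FGF1, FGF2, FGF7 and FGF10 are known as paracrine factors of preadipocytes and vessels, and β-Klotho, the product of *Klb*, joins FGFR1 as the co-receptor for the hormone FGF21.

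Of the 10 genes, 1 was called lower and 0 were called higher in the libraries labelled YT-AKO at an adjusted p under 0.05 (edgeR, quasi-likelihood test, with p-values adjusted by Benjamini and Hochberg's method over the 16807 genes). The unadjusted p was under 0.05 for 2 of the 10. Among all genes tested, 9.01% were called lower, 12.6% higher and 21.6% in either direction. *Fgf2* was the called gene, at 47.8% of its YT-FF level. The receptors, *Klb* and the most abundant ligand, *Fgf10*, were at 0.902 to 1.11 times their YT-FF levels by this fit, with 95% intervals that together span 0.566 to 1.67 times, and their groups overlapped in CPM. In CPM, the groups did not overlap for 2 genes that were lower (*Fgf1* and *Fgf2*) and 1 that was higher (*Fgf9*), against 25.8% and 25.7% of all tested genes (51.5% in either direction).

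The libraries held 17740987 to 21838493 counted fragments. The targeted genes were taken as a check of the labels: *Yap1* fell (log2 fold change -0.98, standard error 0.167, adjusted p = 0.0179) and *Wwtr1*, which encodes TAZ, rose (0.89, standard error 0.182, adjusted p = 0.0220, both by edgeR). Thus 1 of the 2 moved with the label and 1 against it. The counts are summed over a gene's exons and over all cells of the tissue, so they do not show the loss of single exons in adipocytes. This check could therefore not decide on the labels, and every direction given here follows the labels as given. In scWAT of YT-AKO mice the study reported less YAP and TAZ protein by immunoblot, and more *Ucp1* and *Elovl3* by RT-qPCR. The library labelled YT-AKO 2 stood apart, with a TMM factor of 0.777 against 0.954 to 1.16 in the others. Log2 fold changes declined with summed exon length across the tested genes (Spearman's rho -0.376, and -0.283 without YT-AKO 2, across genes, which are not independent replicates). The adipocyte markers (7 of 7 counted in every library) summed to 12109 to 17648 CPM in YT-FF and 20687 to 32939 CPM in the libraries labelled YT-AKO, and 3 of the 7 were called higher (*Fabp4*, *Lipe* and *Pnpla2*). *Fabp4* alone was at 4072 to 7199 CPM in YT-FF and 9159 to 20229 CPM in the libraries labelled YT-AKO. *Adipoq*, *Plin1* and *Cidec* (1.28 to 1.35 times) and *Lep* (0.916 times) were not called, so the sum does not describe the list as a whole. The 6 thermogenic markers summed to 156.7 to 223.4 CPM in YT-FF and 1603 to 3444 CPM in the libraries labelled YT-AKO, with 5 called higher, among them *Ucp1*, the uncoupling protein of thermogenic fat (38.5 times, edgeR fit). That is the direction the study reported for *Ucp1* in scWAT of YT-AKO mice. The epithelial markers, whose cells are known for *Fgfr2* and *Fgfr3*, summed to 3.66 to 5.10 CPM in YT-FF and 3.84 to 4.88 CPM in the libraries labelled YT-AKO, with 2 of 6 passing the filter and *Krt5* at 0 in all 6 libraries.

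**Figure D1:**
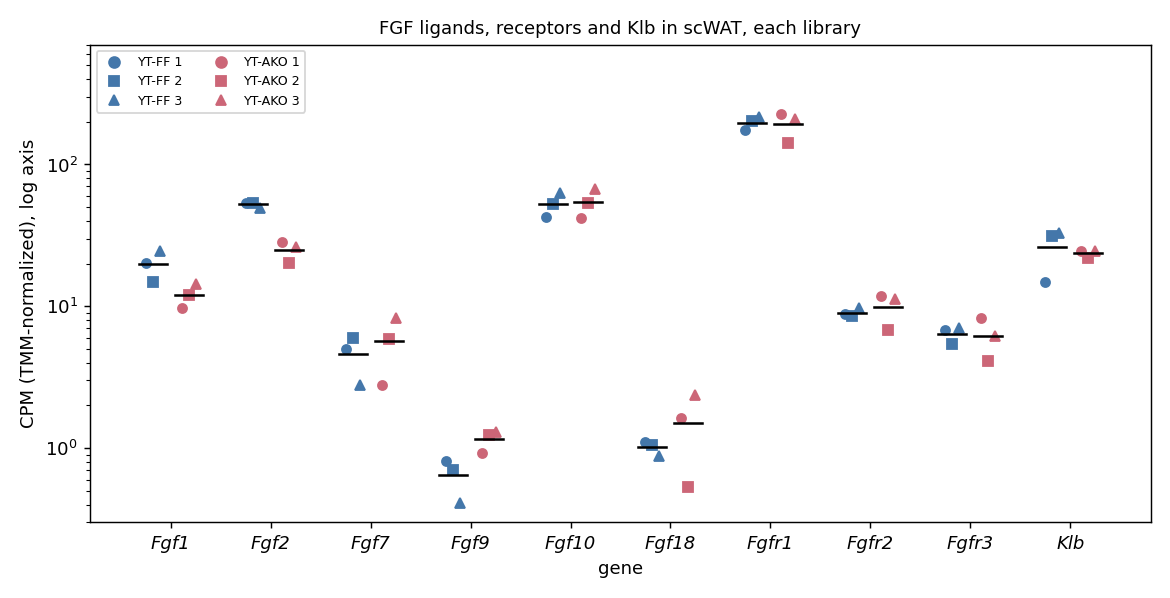
Level of each of the 10 genes in every library (TMM-normalized CPM, log axis; circles, squares and triangles are replicates 1, 2 and 3, blue YT-FF, red YT-AKO, bars the group means). *Fgf2* separates the groups, from 49.6 to 53.8 CPM in YT-FF to 20.1 to 28.4 CPM in the libraries labelled YT-AKO, while *Fgf10*, the receptors and *Klb* overlap.

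*Fgf2* encodes basic FGF, a ligand without a classical signal peptide that acts on many mesenchymal and endothelial cells (ENSMUSG00000037225, chromosome 3, 37348346 to 37410108 of mm10, plus strand). It was counted 1263, 1211 and 964 times in YT-FF libraries 1 to 3, against 489, 341 and 445 in those labelled YT-AKO. In CPM these were 53.8, 53.2 and 49.6 in YT-FF and 28.4, 20.1 and 26.3 in the libraries labelled YT-AKO, so the groups did not overlap and the lowest value was that of YT-AKO 2. *Fgf2* thus fell from 52.2 ± 2.26 CPM to 24.9 ± 4.32 CPM (means with SD over 3 libraries), and edgeR put the log2 fold change at -1.07 (standard error 0.173, 95% interval -1.47 to -0.67, edgeR adjusted p = 0.0177). As with every direction here, this one follows the labels, on which the exon-summed counts of *Yap1* and *Wwtr1* could not decide. The call was lost without YT-FF 1 (log2 fold change -1.05, adjusted p = 0.110) and without YT-FF 2 (-1.06, adjusted p = 0.111, same edgeR test), while without YT-AKO 2 the fold change was -0.93 (adjusted p = 0.00203). Those losses were not particular to *Fgf2*: over all tested genes edgeR called 0 higher and 0 lower without YT-FF 1 (4665 at an unadjusted p under 0.05) and 0 and 2 without YT-FF 2 (4507). With a correction for gene length it was -0.81 (adjusted p = 0.0202).

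Unstranded counting bears on *Fgf2*. Its exons share 9.44% of their 6782 bases with *Nudt6*, the gene on the opposite strand, and 3.76% with Gm43439. With default settings, fragments that touch 2 genes were left out of both. *Nudt6* was counted 98, 99 and 72 times in YT-FF libraries 1 to 3, against 102, 77 and 96 in those labelled YT-AKO, and these counts overlap between the groups. Gm43439 had a count of 0 in all 6 libraries.

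The markers of cells that could carry *Fgf2* were read beside it. The 6 endothelial markers summed to 618.6 to 634.2 CPM in YT-FF and 468.4 to 584.1 CPM in the libraries labelled YT-AKO, without overlap, and 1 of the 6, *Kdr*, was called lower. The markers did not all run 1 way: 4 had log2 fold changes below 0 and 2 above 0, *Emcn* (1.54 times) and *Tie1* (1.10 times), neither of them called. The 9 markers of progenitors and fibroblasts summed to 4025 to 5051 CPM and 4790 to 7518 CPM, with 3 called higher and 1, *Dpp4*, called lower. The 6 mural markers summed to 501.2 to 558.8 CPM and 444.9 to 508.9 CPM with 0 called by edgeR at an adjusted p under 0.05 and 0 at an unadjusted p under 0.05, and the 5 macrophage markers to 307.3 to 388.2 CPM and 365.5 to 446.2 CPM with 0 called and 1 at an unadjusted p under 0.05. The part of these cells in the level of *Fgf2* was not tested.

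YAP and TAZ do not bind DNA themselves and are known to act at promoters and enhancers through the TEAD factors. For *S100b* in adipocytes, however, the study reported repression that did not need TEAD binding, with YAP and TAZ competing with C/EBPβ for the cofactor PRDM16. The promoter windows of the genes were searched for the TEAD core GGAATG or its reverse complement CATTCC, for the C/EBP half-site form TTGCNNAA or TTNNGCAA, and for the GC box GGGCGG or CCGCCC. RefSeq windows of GRCm38.p6, the build of mm10, were used, from 250 bases before to 50 after a transcription start. Windows were found for 8 of the 10 genes, with a second start for *Fgfr3*, 9 windows in all; *Fgf1* and *Fgfr1* are named only. A TEAD core was found in 1 of the 9 windows (*Klb*), against 14.7% of 32851 windows in all, a C/EBP form in 0 of 9 against 10.8%, and a GC box in 5 of 9 against 35.7%. The 3 windows shown are those of the called gene, of the most abundant ligand and of the gene with the TEAD core, with motif matches in capitals, 5′ to 3′ on the gene's strand. They are chr3:37348403-37348702 for *Fgf2*, chr13:118714449-118714748 for *Fgf10* and chr5:65348161-65348460 for *Klb*, all on the plus strand.
Fgf2: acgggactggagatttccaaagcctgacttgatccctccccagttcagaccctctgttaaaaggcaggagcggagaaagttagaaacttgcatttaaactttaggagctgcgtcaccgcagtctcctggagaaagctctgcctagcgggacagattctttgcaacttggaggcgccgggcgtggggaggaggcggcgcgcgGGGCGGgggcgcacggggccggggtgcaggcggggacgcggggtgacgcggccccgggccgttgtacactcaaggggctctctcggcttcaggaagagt
Fgf10: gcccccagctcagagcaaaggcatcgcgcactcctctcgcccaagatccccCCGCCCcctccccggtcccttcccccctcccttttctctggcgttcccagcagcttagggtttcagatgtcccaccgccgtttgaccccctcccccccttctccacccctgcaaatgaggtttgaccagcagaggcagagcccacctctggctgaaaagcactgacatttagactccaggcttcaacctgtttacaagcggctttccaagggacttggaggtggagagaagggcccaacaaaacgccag
Klb: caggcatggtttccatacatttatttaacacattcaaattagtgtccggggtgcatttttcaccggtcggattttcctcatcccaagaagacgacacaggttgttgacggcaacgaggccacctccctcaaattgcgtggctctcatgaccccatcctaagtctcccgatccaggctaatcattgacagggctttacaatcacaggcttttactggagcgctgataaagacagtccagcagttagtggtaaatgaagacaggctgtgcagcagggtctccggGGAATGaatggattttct
The *Fgf2* window has 62.7% G and C and holds 1 GC box, at position -49 from the start site, and no TEAD core. The *Fgf10* window has 60.7% G and C and 1 GC box, at position -199. In the *Klb* window, with 48.3% G and C, the TEAD letters begin at position 33 after the start. These matches describe the letters in the windows, and a window without a match says nothing of the factor.

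*Fgf1* encodes acidic FGF, which binds all FGF receptors and is known in fat as a factor induced by feeding (ENSMUSG00000036585, chromosome 18, 38838673 to 38929472). It was counted 473, 335 and 476 times in YT-FF libraries 1 to 3, against 166, 205 and 242 in those labelled YT-AKO. In CPM the YT-FF values were 20.2, 14.7 and 24.5 and the others 9.65, 12.1 and 14.3, so the groups did not overlap, with YT-FF 2 and YT-AKO 3 nearest to each other. The log2 fold change was -0.72 (standard error 0.249, 95% interval -1.30 to -0.14), which did not pass after adjustment over all genes (edgeR unadjusted p = 0.0208, adjusted p = 0.0710). DESeq2 put it at -0.73 with an adjusted p = 0.0466, just past the threshold (DESeq2 called 12.6% of its 17774 tested genes lower). Library totals alone put it at -1.04 with an adjusted p = 0.0297 (edgeR), in a fit that moved the median of all tested genes to -0.34. The log2 fold change of *Fgf1* stayed between -0.90 and -0.53 with each library left out, and 0 of those 6 fits called it.

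*Fgf10*, a mesenchymal ligand of FGFR2 that is known for its part in the growth of white fat, was the most abundant ligand (ENSMUSG00000021732, chromosome 13, 118669791 to 118792115). It was counted 994, 1204 and 1230 times in YT-FF libraries 1 to 3, against 723, 904 and 1136 in those labelled YT-AKO. The CPM values, 42.4, 52.9 and 63.3 against 42.0, 53.3 and 67.1, spanned nearly the same range in both groups. The log2 fold change was 0.04 (standard error 0.225, 95% interval -0.49 to 0.56, edgeR adjusted p = 0.919), and its sign turned with library totals alone (-0.28), with upper-quartile normalization and when YT-FF 1 or YT-AKO 3 was left out. Of its exon bases, 2.67% are shared with Gm16263 on the opposite strand, which was counted 14 to 44 times per library.

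*Fgf7*, the keratinocyte growth factor of stromal cells (ENSMUSG00000027208, chromosome 2, 126034658 to 126091185), reached 118, 136 and 54 counts in YT-FF libraries 1 to 3, against 48, 99 and 141 in those labelled YT-AKO. YT-FF 3 and YT-AKO 1 were the low libraries, at 2.78 and 2.79 CPM, and the other 4 lay at 5.03 to 8.33 CPM, so each group held both low and high values. Its log2 fold change of 0.30 had a 95% interval of -0.74 to 1.33 (adjusted p = 0.643, edgeR). The interval leaves room for a fall to 0.599 times as for a rise to 2.52 times the YT-FF level.

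The other ligands were close to the limit of counting. *Fgf9*, a ligand of epithelial and mesenchymal exchange (ENSMUSG00000021974, chromosome 14, 58070547 to 58112720), had counts of 19, 16 and 8 in YT-FF, against 16, 21 and 22 in those labelled YT-AKO. In CPM the latter were all higher, 0.930 to 1.30 against 0.412 to 0.810, and the log2 fold change of 0.84 (95% interval -0.21 to 1.88) did not pass (edgeR adjusted p = 0.200). In TPM its groups overlapped. *Fgf18*, known from cartilage and lung (ENSMUSG00000057967, chromosome 11, 33117430 to 33147400), had counts of 26, 24 and 17 in YT-FF, against 28, 9 and 40 in those labelled YT-AKO, with the lowest and the highest value of all 6 in the same group. Its log2 fold change was 0.57 (95% interval -0.71 to 1.85, adjusted p = 0.464, edgeR) and ran from 0.094 without YT-AKO 3 (adjusted p = 0.918) to 0.97 without YT-AKO 2 (adjusted p = 0.0898). The intervals of the fold itself, 0.864 to 3.69 for *Fgf9* and 0.610 to 3.61 for *Fgf18*, show how little these counts can settle.

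**Figure D2:**
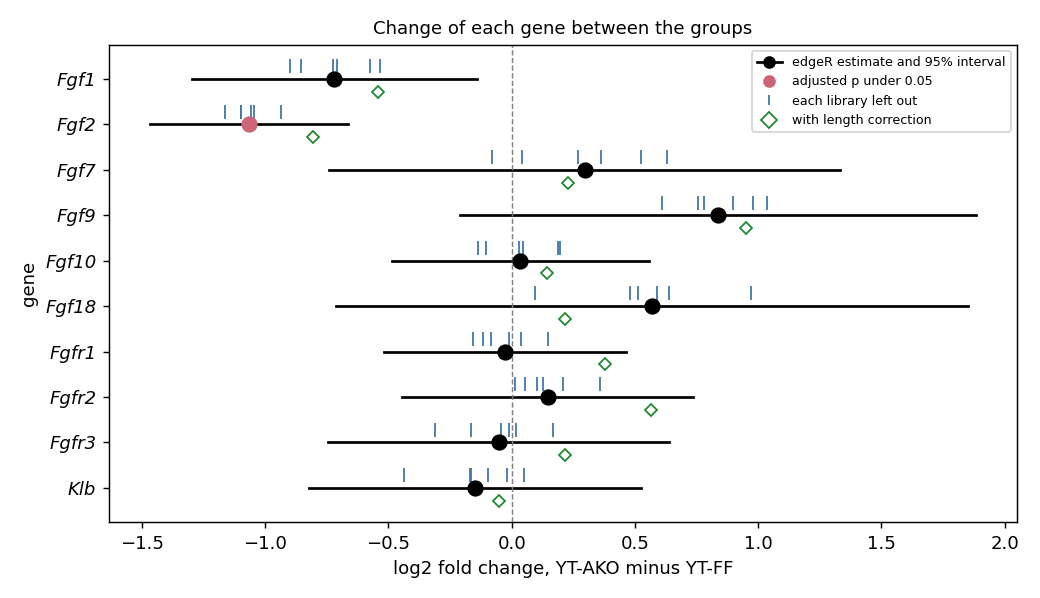
Log2 fold change of each gene, YT-AKO minus YT-FF (points with 95% intervals from edgeR; the red point has an adjusted p under 0.05; blue ticks are the fits that each left out 1 library; green diamonds are the fits with a correction for gene length). The interval of *Fgf2* runs from -1.47 to -0.67, that of *Fgf1* from -1.30 to -0.14, and those of the other 8 genes include 0.

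*Fgfr1*, the main receptor of the mesenchymal lineage and of adipocytes (ENSMUSG00000031565, chromosome 8, 25513654 to 25575718), was the most abundant of the 10 genes. It was counted 4086, 4644 and 4170 times in YT-FF libraries 1 to 3, against 3929, 2421 and 3553 in those labelled YT-AKO. In CPM these were 174.2, 204.1 and 214.7 and 228.4, 142.8 and 210.0, so YT-AKO 1 and YT-AKO 2 were the highest and the lowest of all 6 libraries. The log2 fold change was -0.03 (standard error 0.212, 95% interval -0.52 to 0.46, adjusted p = 0.929, edgeR). It was 0.15 without YT-AKO 2 and 0.38 with the length correction (adjusted p = 0.145, edgeR). That correction without YT-AKO 2, a fit chosen after the data were seen, called *Fgfr1* higher (0.46, adjusted p = 0.0482) and *Fgfr2* higher (0.69, adjusted p = 0.0288), the only fit of those run to call a receptor. In the same fit 6761 of the 17350 tested genes had an unadjusted p under 0.05 (edgeR, either direction), so these calls are not particular to the receptors.

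*Fgfr2*, a receptor known from epithelia and mesenchyme (ENSMUSG00000030849, chromosome 7, 130162451 to 133123350), had counts of 206, 194 and 188 in YT-FF, against 203, 115 and 191 in those labelled YT-AKO. *Fgfr3*, known from cartilage and brain (ENSMUSG00000054252, chromosome 5, 33721674 to 33737068), had counts of 159, 124 and 136 in YT-FF, against 142, 70 and 104 in those labelled YT-AKO. For both, as for *Fgfr1*, YT-AKO 1 was the highest and YT-AKO 2 the lowest of the 6 libraries in CPM, and YT-FF lay between them. The log2 fold change of *Fgfr2* was 0.15 (95% interval -0.44 to 0.74, adjusted p = 0.688, edgeR) and that of *Fgfr3* was -0.05 (95% interval -0.75 to 0.64, adjusted p = 0.907, edgeR). With the length correction they were 0.57 (adjusted p = 0.0983) and 0.22 (adjusted p = 0.582). With library totals alone the estimates of all 3 receptors were below 0, from -0.35 to -0.15. Exons of *Fgfr3* share 13.9% of their bases with G630022F23Rik on the opposite strand, which had 0 to 4 counts per library, those of *Fgfr2* share 3.04% with *Ctbp2* and those of *Fgfr1* 1.66% with Gm16159.

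In TPM, which divides by exon length and by the length-weighted total of a library, *Fgfr1* and *Fgfr2* were lower in every library labelled YT-AKO than in every YT-FF library, in contrast to their CPM. *Fgfr1* was at 67.8, 81.6 and 78.4 TPM in YT-FF and at 64.5, 25.3 and 57.8 TPM in the libraries labelled YT-AKO. Apart from the overlap of groups given for *Fgf9*, TPM was therefore used here only to set genes side by side or as shares.

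The composition of the receptors did not differ beyond the spread between libraries. *Fgfr1* made up 91.2% ± 1.06 of the summed TPM of *Fgfr1* to *Fgfr4* in YT-FF and 90.7% ± 0.449 in those labelled YT-AKO (means with SD, n = 3, difference -0.50 percentage points, two-sided exact permutation test, p = 0.6). *Fgfr2* held 3.99% ± 0.338 and 4.42% ± 0.271 (exact p = 0.2), *Fgfr3* 4.11% ± 0.723 and 3.93% ± 0.489 (exact p = 0.7) and *Fgfr4* 0.734% ± 0.365 and 0.979% ± 0.247 (exact p = 0.4). Of the 10 shares tested over receptors and ligands, 0 passed after Benjamini-Hochberg adjustment, and with 3 libraries against 3 the smallest exact p is 0.1.

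Among the ligands, the share of *Fgf2* was 33.8%, 31.5% and 26.9% of the 6 ligands' summed TPM in YT-FF 1 to 3 and 23.9%, 15.4% and 14.96% in the libraries labelled YT-AKO 1 to 3. No library labelled YT-AKO reached the lowest YT-FF share (difference -12.6 percentage points, two-sided exact permutation test, p = 0.1, the smallest possible, adjusted p = 0.333). The share of *Fgf10* lay the other way, at 39.2%, 46.1% and 50.5% against 52.1%, 60.1% and 56.3% (difference 10.9 percentage points, exact p = 0.1, adjusted p = 0.333). The share of *Fgf9*, 0.558% ± 0.212 and 1.20% ± 0.160, did not overlap either, and those of *Fgf1*, *Fgf7* and *Fgf18* did. A smaller share of one ligand raises the others, so these shares are not separate results.

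**Figure D3:**
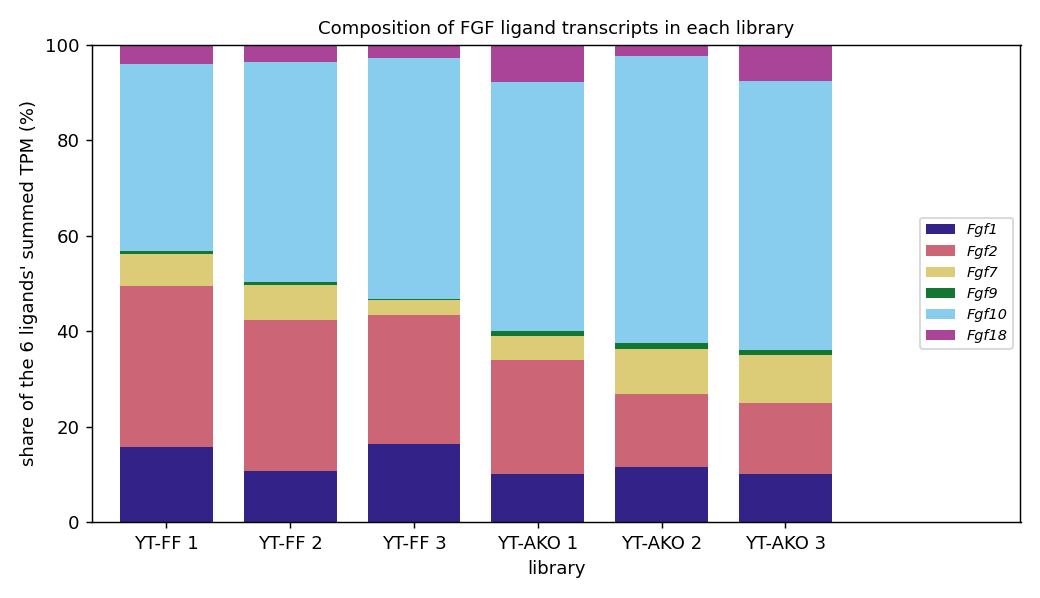
Share of each of the 6 ligands in their summed TPM, in percent, for each library (stacked bars, 1 bar per library). The *Fgf2* part runs from 26.9% to 33.8% in the YT-FF libraries and from 14.96% to 23.9% in the libraries labelled YT-AKO, and the *Fgf10* part from 39.2% to 50.5% and from 52.1% to 60.1%.

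Set side by side per length, the mean TPM in YT-FF ran from *Fgfr1* (75.9) over *Fgf10* (43.5), *Fgf2* (29.3), *Klb* (21.9), *Fgf1* (13.7), *Fgf7* (5.43), *Fgfr3* (3.39), *Fgfr2* (3.30) and *Fgf18* (3.25) to *Fgf9* (0.529). Neighbours in this order overlapped between *Fgf2* and *Klb*, *Klb* and *Fgf1*, and among *Fgf7*, *Fgfr3*, *Fgfr2* and *Fgf18*, and the other neighbours did not. In the libraries labelled YT-AKO the order was *Fgfr1* (49.2), *Fgf10* (28.5), *Klb* (12.8), *Fgf2* (9.14), *Fgf1* (5.31), *Fgf7* (4.17), *Fgf18* (3.34), *Fgfr2* (2.44), *Fgfr3* (2.19) and *Fgf9* (0.595), with *Klb* ahead of *Fgf2*. There, only *Fgf10* with *Klb* and *Fgfr3* with *Fgf9* were neighbours whose libraries did not overlap.

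*Klb* (ENSMUSG00000029195, chromosome 5, 65348314 to 65384007) had counts of 350, 707 and 643 in YT-FF libraries 1 to 3, against 423, 373 and 418 in those labelled YT-AKO. In CPM, YT-FF 1 was the lowest of the 6 libraries at 14.9 and YT-FF 2 and YT-FF 3 were the highest at 31.1 and 33.1, with the libraries labelled YT-AKO between them at 22.0 to 24.7. The log2 fold change was -0.15 (standard error 0.291, 95% interval -0.82 to 0.52, adjusted p = 0.723, edgeR). It was -0.44 without YT-FF 1 and 0.05 without YT-FF 3. The hormone ligand of this co-receptor, *Fgf21*, chosen for mention after its values were seen, had counts of 0, 12 and 7 in YT-FF, against 7, 4 and 0 in those labelled YT-AKO and was too low to test.

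The rest of the FGF family was mostly near zero. Of 19 other ligands, receptors and co-receptors, 5 passed the filter on low counts, and 0 were called by edgeR at an adjusted p under 0.05 or had an unadjusted p under 0.05. *Fgfrl1*, a receptor without a kinase domain, was at 166.5, 169.1 and 247.1 CPM in YT-FF and 156.6, 111.9 and 206.4 in the libraries labelled YT-AKO (log2 fold change -0.29, 95% interval -0.91 to 0.32). The intracellular FGF homologues *Fgf11*, *Fgf13* and *Fgf14* had log2 fold changes of -0.003, -0.74 and -0.83 and *Fgfr4*, with 8 to 19 counts per library, 0.32, with adjusted p-values from 0.171 to 0.995 (edgeR). The estimate of *Fgf13* was -0.02 without YT-FF 3, which held 518 counts against 132 to 218 in the others. *Fgf8* and *Fgf15* had a count of 0 in all 6 libraries.

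Of 25 genes listed as binding and matrix partners, 22 were tested, 1 was called higher and 1 lower (12.6% and 9.01% of all tested genes), with a median log2 fold change of -0.34 against -0.02 for all tested genes. These medians carry no correction for exon length, with which log2 fold changes declined, so they do not show a shift particular to the list. *Sdc1*, the heparan sulfate proteoglycan syndecan-1, rose from 10.1 to 13.4 CPM in YT-FF to 18.2 to 25.4 CPM in the libraries labelled YT-AKO (log2 fold change 0.87, adjusted p = 0.0296, edgeR). *Gpc6*, the glypican-6 core protein, fell from 3.81 to 5.80 CPM to 0.944 to 1.92 CPM (log2 fold change -1.71, adjusted p = 0.0237, same test). The call of *Sdc1* was lost in 5 of the 6 fits that left out 1 library, all but the one without YT-AKO 2, and that of *Gpc6* without YT-FF 1 or YT-FF 2. The summed CPM of the 25 genes lay lower without overlap, at 917.3 to 1301 against 1329 to 1436 in YT-FF. The largest part of this sum was *Hspg2*, at 482.2 to 540.7 CPM in YT-FF and 272.3 to 393.0 CPM in the libraries labelled YT-AKO. It was not called (adjusted p = 0.0775, edgeR) and has the longest exons of the list, 14739 bases, while log2 fold changes declined with exon length over all tested genes. The sum thus does not describe the list as a whole.

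Of 20 intracellular signalling genes, all were tested, 2 were called higher and 3 lower, near the 12.6% and 9.01% of all tested genes. The median log2 fold change was -0.28, also without a correction for exon length. *Hras*, a RAS GTPase, was at 30.1 to 41.2 CPM in YT-FF and 69.0 to 151.0 CPM in the libraries labelled YT-AKO (2.83 times the YT-FF level in the fit, adjusted p = 0.0245), and *Map2k2*, which encodes the kinase MEK2, at 89.8 to 95.3 and 182.9 to 369.5 CPM (2.68 times, adjusted p = 0.0217, both edgeR). YT-AKO 2 was the highest library for both. *Frs2*, the adaptor that FGF receptors phosphorylate, fell by 0.53 on the log2 scale (adjusted p = 0.0442), *Braf*, a RAF kinase, by 0.94 (adjusted p = 0.0301), and *Cbl*, a ubiquitin ligase that ends receptor signalling, by 1.16 (adjusted p = 0.0226, all edgeR). YT-AKO 2 was the lowest library for these. Their exons are long, 8747 bases for *Frs2*, 13862 for *Braf* and 12345 for *Cbl* against 3733 for *Hras* and 5663 for *Map2k2*. With the length correction *Frs2* and *Braf* were no longer called, at -0.14 (adjusted p = 0.457) and -0.42 (adjusted p = 0.0966), and *Cbl* was at -0.67 (adjusted p = 0.0379). All 5 calls were lost without YT-FF 1 and without YT-FF 2, and all but that of *Cbl* without YT-FF 3 (adjusted p of 0.0554 for *Hras*, 0.0594 for *Map2k2*, 0.0703 for *Braf* and 0.0809 for *Frs2*, edgeR). *Frs2* was also lost without YT-AKO 1 (0.0757) and without YT-AKO 3 (0.0631), and *Braf* without YT-AKO 3 (0.0575).

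The 17 feedback inhibitors and transcriptional targets, genes that FGF signalling is known to induce, were all tested, and 0 were called by edgeR at an adjusted p under 0.05, with 2 at an unadjusted p under 0.05, *Egr1* and *Ccnd1*. DESeq2 called 0 higher and 2 lower. Their median log2 fold change was -0.04. *Dusp6*, a feedback phosphatase of the pathway, was at 43.0, 37.8 and 42.1 CPM in YT-FF and 52.2, 26.6 and 41.0 CPM in the libraries labelled YT-AKO (log2 fold change -0.04, 95% interval -0.60 to 0.52). *Spry1*, *Spry2* and *Spry4*, Sprouty inhibitors of RAS activation, had log2 fold changes of 0.30, 0.09 and 0.11 with overlapping groups, and *Etv5*, an ETS factor induced by FGF, -0.43 (95% interval -0.92 to 0.07, adjusted p = 0.172, edgeR). *Egr1* and *Ccnd1*, both also driven by many other signals, were at -1.08 and -1.06 (adjusted p = 0.0730 and 0.0673, edgeR). Both were lower without overlap between the groups, as were 25.8% of all tested genes. *Egr1* was at 78.1 CPM in YT-FF 2, against 32.6 and 30.5 CPM in YT-FF 1 and YT-FF 3 and 17.4 to 26.4 CPM in the libraries labelled YT-AKO, so its estimate leans on 1 library. *Ccnd1* shares 23.4% of its exon bases with a gene on the opposite strand, LTO1.

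**Figure D4:**
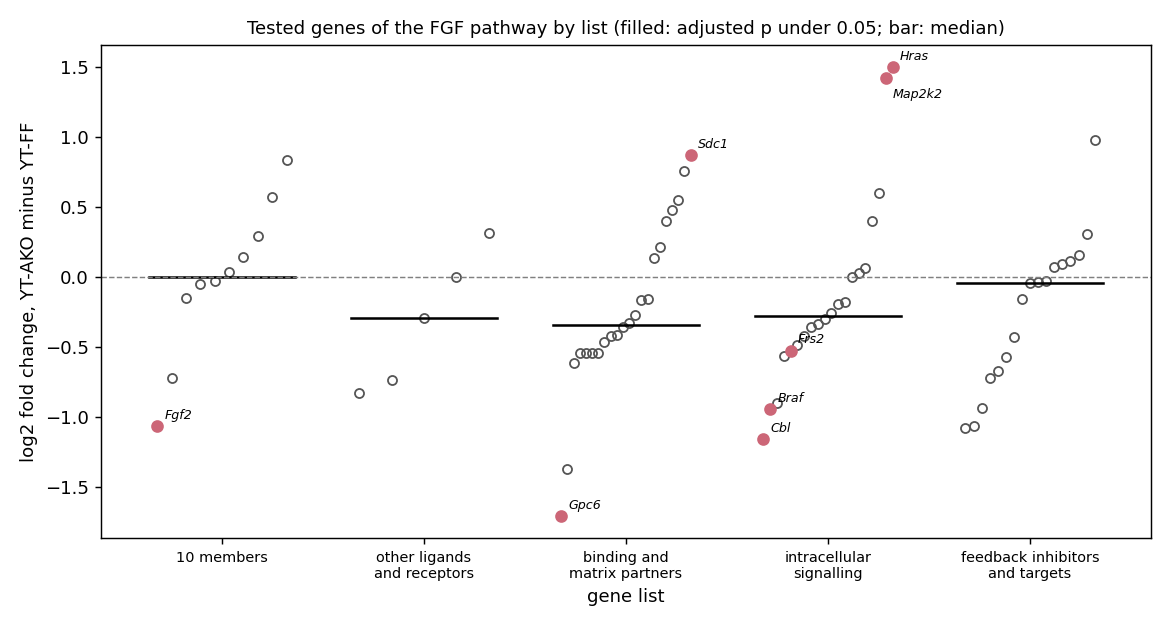
Log2 fold change of every tested gene in the 10 genes and in the 4 lists of other FGF pathway genes, YT-AKO minus YT-FF (1 point per gene, sorted within a list; filled red points have an adjusted p under 0.05 and are named; bars are list medians). The medians run from -0.34 to 0.00 without a correction for exon length, and 8 genes are filled, *Fgf2* among them.

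The genes whose levels followed each member most closely over the 6 libraries were taken from the tested genes with a mean of at least 10 CPM, by Pearson's r of log2 CPM. These are descriptions over 6 libraries that share groups and scaling, and say nothing of function. For *Fgf2* they were *Ttc14*, *Man1a* and *March7* (r of 0.999 or more). Each of these was called lower too, which is no separate result, since they were picked for their likeness to a gene that separates the groups. For *Fgf1* they were *Mc2r*, *Ggnbp2* and *Smoc1* (0.961 to 0.970), for *Fgf7* *Zfpm1*, *Hdac10* and *Rab3il1* (0.939 to 0.953), for *Fgf10* *Usp30*, 2510009E07Rik and *Cmbl* (0.952 to 0.980), and for *Fgf18* *Bhlhe40*, *Vps37c* and *Fbf1* (0.987 to 0.997). For *Fgfr1* they were *Dcaf12*, *Rac1* and *Adam9* (0.989 to 0.992), for *Fgfr2* *Eno1b*, *Csnk1d* and *E2f6* (0.993 or more), for *Fgfr3* *Tmem80*, *Pdha1* and *Socs6* (0.981 to 0.991), and for *Klb* *Mtus1*, *Fbxo33* and *Ccn1* (0.915 to 0.951). *Fgf9* was below 1 CPM on average and was left out.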

How the data were processed

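scWAT libraries of 3 YT-FF and 3 YT-AKO mice were assigned to groups by their labelled genotype. Each deposited file holds raw counts (whole fragments per gene), made by the authors with HISAT2 on mm10 and featureCounts 2.0.1 over GENCODE vM25 exons; counting ignored strand and, by its defaults, fragments shared by genes or places. Symbols were matched to 55141 of 55401 identifiers. Library totals ran from 17740987 to 21838493.

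R 4.3.3 and edgeR 4.0.16 were used: the quasi-likelihood test after TMM scaling and filterByExpr (minimum count 10, minimum total 15), Benjamini-Hochberg adjustment over 16807 genes and a call at an adjusted p under 0.05. Standard errors came from the fold change and its F statistic, and 95% intervals from these and the test's degrees of freedom. CPM was scaled by TMM, and TPM was computed here from the exon lengths. Shares of TPM were compared by exact permutation tests. The study gives 3 male mice per group, and the labels name 3 separate samples in each. The p-values therefore measure the spread between these samples, each taken as a mouse. The scripts were tested on simulated data.

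The alternatives were DESeq2 1.42.0, limma-voom (limma 3.58.1), upper-quartile scaling, library totals alone, no filter, 10 counts or more everywhere, robust fitting, a replicate block, a length correction (6-df spline per library), block and length together, the study's own thresholds (adjusted p below 0.01, log2 fold change past 1), leaving out each library, and shares of counts. The length correction without YT-AKO 2 was chosen after seeing the data.

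The 10 genes and all lists were chosen with earlier results of these data known. All 10 are named, with the called genes of the 4 other lists, the tested family genes and the 3 genes most like each member; other pathway genes were named after their values were seen. Marker lists not given in the report were lymphocytes (2 of 6 called lower), skeletal muscle (1 of 6 higher, summed at 2945 CPM in YT-AKO 1 and 111.5 to 438.3 CPM elsewhere) and Schwann cells (0 of 5 called by edgeR, 0 at an unadjusted p under 0.05).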

Additional observations from a re-analysis of the deposited data

How the results depend on the processing

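The log2 fold change of *Fgf2* was below 0 in all 16 planned fits and called in 12. DESeq2 (-0.73, adjusted p = 0.0466) and library totals alone (-1.04, adjusted p = 0.0297, edgeR) called *Fgf1* too, so 2 of the 10 genes were called lower under each (DESeq2 called 12.6% of all its tested genes lower and 16.2% higher). Library totals alone moved the median of all genes to -0.34, turned *Fgf7* to -0.047, *Fgf10* to -0.28 and *Fgfr2* to -0.15, and called 1137 genes higher and 2828 lower (2121 and 1515 in the report), with 0 binding partners higher and 3 lower, 6 signalling genes lower and 1 target lower. Upper-quartile normalization put *Fgf10* at -0.0072.

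The replicate numbers did not pair the libraries: the same-number correlations of deviations were 0.139, -0.134 and -0.091, and 2 of 6 libraries were most like their own number. With the replicate block, 24 genes were called higher and 9 lower, with 0 of the 10 genes, 0 binding partners and 0 signalling genes in either direction, and *Fgf2* at -1.08 (adjusted p = 0.0584, edgeR). With the replicate block and the length correction, 59 were called higher and 22 lower and again 0 in those lists. In that fit *Fgf2* was at -0.81 (adjusted p = 0.0633, edgeR), *Fgf18* at -0.012, *Fgfr1* at 0.38, *Fgfr3* at 0.20 and *Klb* at 0.029.

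The length correction alone called 763 genes lower, 2 binding partners higher and 2 lower and 1 signalling gene lower, and put *Fgfr1* at 0.38 and *Fgfr3* at 0.22. Without YT-AKO 2 it called 2 of the 10 genes higher (*Fgfr1* at 0.46 and *Fgfr2* at 0.69), 4 binding partners higher and 2 lower, 1 signalling gene lower and 1 target lower, with *Fgfr3* at 0.37 and *Fgf11* at 0.082. Among all 17350 genes tested in that fit, 6761 had an unadjusted p under 0.05 (edgeR, either direction). The study's thresholds left 15 genes higher and 6 lower, with 0 of the 10 genes, 0 binding partners and 0 signalling genes. DESeq2 called 2 binding partners and 2 targets lower, limma-voom 1 target lower and the unfiltered fit 2 targets lower.

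Leaving out each library gave -1.16 to -0.93 for *Fgf2*, -0.081 to 0.63 for *Fgf7*, -0.14 to 0.20 for *Fgf10*, -0.16 to 0.15 for *Fgfr1*, -0.31 to 0.17 for *Fgfr3*, -0.44 to 0.051 for *Klb* and -0.39 to 0.17 for *Fgf11*, and -0.93 to 0.10 and -0.54 to 0.19 percentage points for the *Fgfr1* and *Fgfr3* shares. It left 0 to 1 of the 10 genes lower, 0 to 2925 genes higher and 0 to 2424 lower, 0 to 3 binding partners in each direction, 0 to 3 signalling genes higher and 0 to 5 lower, and 0 to 1 targets lower. Over all genes, 0 were called without YT-FF 1 and 2 without YT-FF 2, while without YT-FF 3 there were 704 higher and 528 lower, without YT-AKO 3 895 lower and without YT-AKO 2 2424 lower. The causes of these changes were not tested. Counts under 50 per library limit *Fgf9* and *Fgf18*, and strand cannot be read from these counts.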
